A study of Mus musculus with 8 samples.

Results

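The tissue kallikrein genes Klk1, Klk1b3, Klk1b4, Klk1b5, Klk1b11, Klk1b21, Klk1b22, Klk1b26 and Klk1b27 of the mouse were followed by every probe set whose platform annotation names one of these 9 genes, alone or together with a paralog. A probe set is a group of short array probes that read 1 transcript or several near-identical ones. There were 11 such probe sets among 45037, and they name 7 of the 9 genes, 5 of them alone; expression of Klk1b3 and Klk1b4 was not analysed here. The family was chosen from measured strain differences on these arrays, so their strain contrast is a description and no p-value is given for a member.

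RNA came from pancreatic islets of mice of the inbred strains AKR/J and C57Bl/6J, all of them fed a high-fat diet for 3 months. Each of the 4 samples per strain pooled 2 mice, and each was read on 1 Affymetrix mouse expression array. No group on a control diet was analysed here, the labels used give no age or sex, and the number of arrays limits the precision. Arrays 1 to 4 are AKR/J and arrays 5 to 8 are C57Bl/6J. The p-values for other genes weigh the strain difference against the spread between pools of 2 mice, not between single mice.

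Tissue kallikrein is a secreted serine protease that cuts kininogen to release kinins, short peptides that act on bradykinin receptors to dilate vessels and raise their permeability. In the rodent pancreas it is made by the acinar cells, which produce digestive enzymes. The mouse carries, beside Klk1 itself, a cluster of close paralogs that are known mostly from the submandibular gland. Klk1b3 encodes the gamma subunit and Klk1b4 the alpha subunit of the nerve growth factor complex of that gland, Klk1b22 and Klk1b9 encode proteins that bind epidermal growth factor, and Klk1b26 encodes an enzyme that converts prorenin. Klk1b21 and Klk1b27 are known from Leydig cells of the testis.

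The promoters show how alike the members are and where they differ. In RefSeq sequence of the build GRCm38.p6, which is of the C57BL/6J strain, windows of 250 bases before and 50 after the annotated start were available for all 9 members, and aligned stretches of them were 80.5% to 94.5% identical, with Klk1b27 and Klk1b21 the closest pair. A stretch of 61 bases upstream is shown for 8 genes on chromosome 7, all on the + strand and written 5′ to 3′, because these letters differ between them. Capitals mark TGGGAA, the core letters known for the factor RBPJ, and CAGGTG, E-box letters of the kind read by basic helix-loop-helix factors. Both motifs were chosen after the sequences were seen. Klk1, both Klk1b5 probe sets and the shared Klk1b9/Klk1b22 probe set were the ones with clear signal on these arrays.
Klk1, chr7:44225226-44225286: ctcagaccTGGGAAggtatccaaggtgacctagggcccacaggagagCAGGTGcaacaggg
Klk1b5, chr7:44216248-44216308: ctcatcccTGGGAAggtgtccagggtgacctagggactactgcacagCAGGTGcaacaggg
Klk1b22, chr7:44112449-44112509: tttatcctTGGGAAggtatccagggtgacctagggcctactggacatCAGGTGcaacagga
Klk1b9, chr7:43975844-43975904: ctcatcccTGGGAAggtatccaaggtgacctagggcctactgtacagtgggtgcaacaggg
Klk1b11, chr7:43995654-43995714: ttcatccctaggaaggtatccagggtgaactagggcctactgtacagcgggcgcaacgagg
Klk1b26, chr7:44012469-44012529: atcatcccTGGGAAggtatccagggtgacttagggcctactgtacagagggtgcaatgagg
Klk1b27, chr7:44052089-44052149: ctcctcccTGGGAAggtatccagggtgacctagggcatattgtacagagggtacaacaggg
Klk1b8, chr7:43950438-43950498: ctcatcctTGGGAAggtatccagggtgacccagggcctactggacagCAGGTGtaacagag

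Klk1, Klk1b5, Klk1b22, Klk1b3 and Klk1b4 held both motifs with 33 letters between them, which makes 5 of the 9 members, and so did 6 of the 14 genes formed by Klk1 and its paralogs. The remaining 4 members held no CAGGTG at that place; Klk1b11 read cgggcg there and taggaa in place of the other motif. Of 32851 promoter windows of the genome, 9 held both motifs at this distance, on either strand, a share of 0.0274%. These 9 include the 6 of Klk1 and its paralogs. The motifs and their distance were taken from Klk1 itself and the paralogs are close copies, so this share is no test. Klk1b8, which is no member, also held both, and its probe set was detected on 0 of 8 arrays. Klk1b24 held no CAGGTG at that place and was detected on all 8, and Klk1b9, which shares a probe set with Klk1b22, read tgggtg there.

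Searched alone on both strands over the whole windows, CACCTG was in 8 of 9 members against 20.2% of all windows, its reverse complement included. TGGGAA was in 8 of 9 members against 25.6%. A stretch like a TATA box, spelled TTTAAA, was in 8 of 9 members against 13.2%. The member without TTTAAA was Klk1, whose window ends at gaatgagggt, letters that stand just before that stretch in Klk1b5. The bases that follow in Klk1 were not searched. In Klk1b21, TTTAAA lies after the annotated start. Klk1b21 was the member without CACCTG, and its window ends at cactgcctg, letters that stand before CACCTG in Klk1b27. The standard TATA box letters TATAAA were in 0 of 9 members, against 13.6% of all windows. These searches include the 50 bases after the start, where several members hold CACCTG. The members are close copies of each other, so their counts are not independent and are no test against the shares. AKR/J sequence was not used here, and a match in letters does not show that a factor binds.

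The full window of Klk1b5, chr7:44216224-44216523 on the + strand, is printed because this gene, with a probe set of its own without the _x_at suffix, had the largest strain difference of the members by GCRMA, the summary used first below. Capitals mark, from left to right, the RBPJ core, the E-box and the TATA-like stretch, and no match overlaps another.
Klk1b5 promoter: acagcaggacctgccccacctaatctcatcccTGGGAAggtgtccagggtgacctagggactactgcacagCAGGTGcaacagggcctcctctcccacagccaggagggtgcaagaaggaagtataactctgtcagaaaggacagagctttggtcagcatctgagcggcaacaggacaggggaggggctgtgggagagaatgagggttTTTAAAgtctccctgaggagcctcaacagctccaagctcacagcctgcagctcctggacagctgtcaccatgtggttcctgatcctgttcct

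Values below are log2 of the deposited GCRMA intensity unless the second summary, the MAS5-type Signal of each array, is named, and every difference is AKR/J minus C57Bl/6J. A probe set counts as detected on an array where its deposited detection p is under 0.05. Of the 11 probe sets, 7 were detected on at least 4 arrays and entered the fit across 20772 probe sets, 4 were detected on all 8 arrays, and 3 were detected on none. Each probe set has its own response, so a brighter probe set is not read as more transcript; brightness serves only to choose probe sets. The suffix _x_at marks probe sets with probes that can match several similar transcripts, and 6 of these 11 carry it. Probe sequences and AKR/J sequence were not used here, so which paralogs each one reads, and how well in each strain, was not tested.

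Klk1, the kininogen-cutting tissue kallikrein, read lower in AKR/J islets on both of its bright probe sets. The probe set 1415837_at read 12.16, 12.37, 12.79 and 12.71 on the 4 AKR/J arrays, against 14.71, 14.52, 14.55 and 14.76 on the 4 C57Bl/6J arrays. All AKR/J arrays lay below all C57Bl/6J arrays. The means were 12.51 ± 0.29 in AKR/J, against 14.64 ± 0.12 in C57Bl/6J (SD over 4 arrays), a difference of -2.13 or 4.37-fold lower. The probe set 1448107_x_at read 12.23, 12.46, 12.98 and 12.90 in AKR/J, against 14.75, 14.43, 14.67 and 14.65 in C57Bl/6J. Its strains did not overlap either, and its difference was -1.98, or 3.96-fold lower in AKR/J.

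The other Klk1 probe sets did not show this separation in both summaries. The probe set 1455977_x_at read 7.71, 8.11, 7.97 and 8.11 in AKR/J, against 9.25, 8.23, 8.58 and 8.57 in C57Bl/6J. The strains were apart by a narrow margin, with a mean of 7.97 ± 0.19 in AKR/J, against 8.66 ± 0.43 in C57Bl/6J (SD over 4 arrays) and a difference of -0.68. The probe set 1460050_x_at read 5.52, 5.53, 5.47 and 5.53 in AKR/J, against 5.52, 5.52, 5.49 and 5.68 in C57Bl/6J. Its strains overlapped and differed by -0.04. All 4 Klk1 probe sets carry the same gene symbol alone, and they span differences of -2.13 to -0.04.

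**Figure D1:**
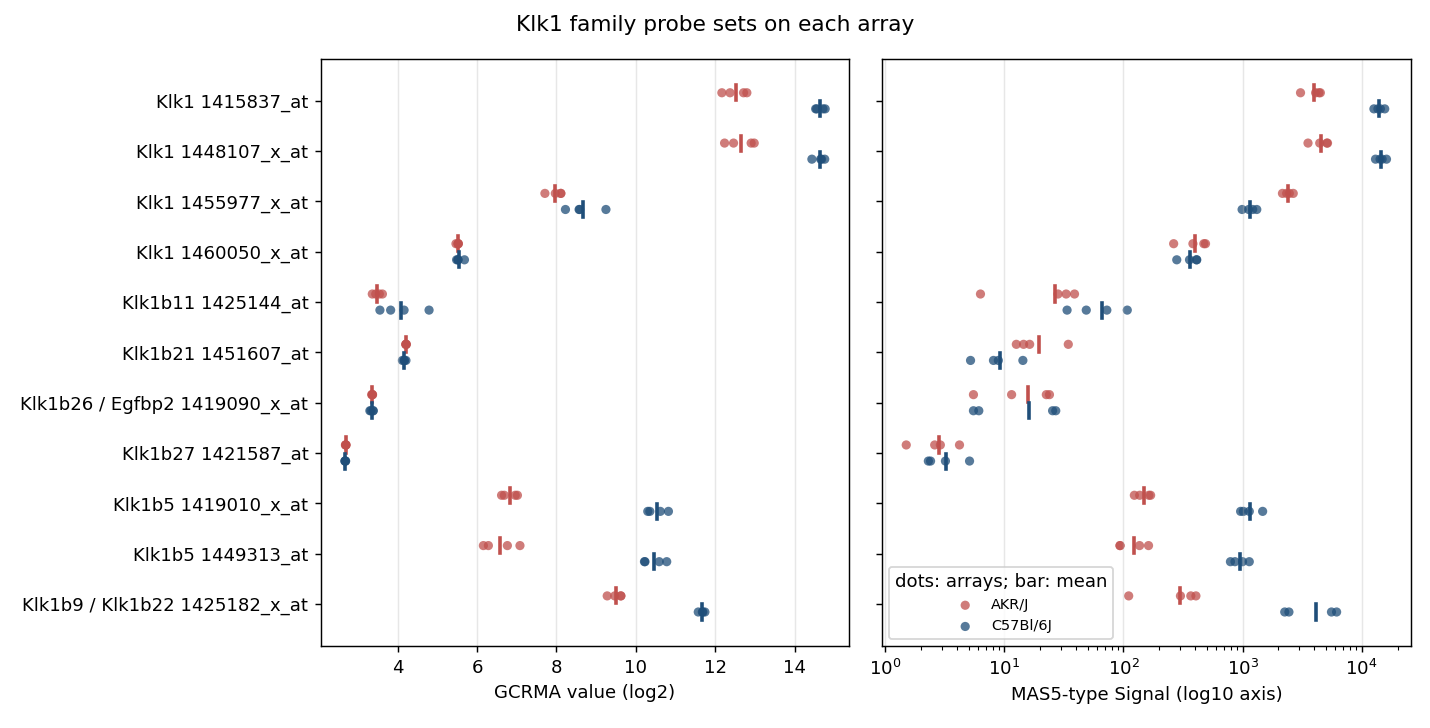
Value of each of the 11 probe sets on each array, AKR/J in red above C57Bl/6J in blue, with the mean as a bar; the left axis is log2 GCRMA intensity and the right axis is MAS5-type Signal on a log10 axis. AKR/J dots lie clearly left of C57Bl/6J dots in both panels for 1415837_at and 1448107_x_at of Klk1, both Klk1b5 probe sets and 1425182_x_at, while 1455977_x_at lies left in one panel and right in the other.

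Klk1b5, a close paralog that lies next to Klk1 on the chromosome, had the largest differences of the members by GCRMA; by Signal, the shared Klk1b9/Klk1b22 probe set had the largest among the tested ones. The probe set 1449313_at read 6.29, 6.16, 7.08 and 6.76 in AKR/J, against 10.59, 10.22, 10.23 and 10.78 in C57Bl/6J. Its means were 6.57 ± 0.43 in AKR/J, against 10.45 ± 0.28 in C57Bl/6J (SD over 4 arrays), a difference of -3.88, or 14.7-fold lower in AKR/J. The strains were more than 3 log2 units apart at their nearest arrays. The probe set 1419010_x_at read 6.62, 6.69, 6.96 and 7.02 in AKR/J, against 10.61, 10.35, 10.30 and 10.82 in C57Bl/6J. This second probe set gave -3.70, or 12.98-fold lower, so both Klk1b5 probe sets, one with and one without the _x_at suffix, were alike in size. Both were detected on all 8 arrays. Which transcripts give the AKR/J signal was not tested, so neither fold can be given to Klk1b5 alone.

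Klk1b22 is named only by 1425182_x_at, which also names Klk1b9, so its signal belongs to either gene or to both. The probe set read 9.28, 9.47, 9.62 and 9.62 in AKR/J, against 11.67, 11.57, 11.69 and 11.74 in C57Bl/6J. The strains did not overlap, and the spread within each was small, with means of 9.50 ± 0.16 in AKR/J, against 11.67 ± 0.07 in C57Bl/6J (SD over 4 arrays). The difference was -2.17, or 4.50-fold lower in AKR/J. It was detected on 3 AKR/J arrays and 4 C57Bl/6J arrays.

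Klk1b11 sat at the edge of detection. Its probe set 1425144_at read 3.36, 3.45, 3.54 and 3.62 in AKR/J, against 4.16, 3.56, 3.83 and 4.79 in C57Bl/6J, and was detected on 0 AKR/J arrays and 2 C57Bl/6J arrays. The strains overlapped, and the difference of -0.59 was about the size of the SD among C57Bl/6J arrays, 0.53.

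Klk1b21, Klk1b26 and Klk1b27 were not detected on any array. Klk1b21 (1451607_at) averaged 4.21 ± 0.01 in AKR/J, against 4.17 ± 0.04 in C57Bl/6J, and Klk1b27 (1421587_at) averaged 2.70 ± 0.01 in AKR/J, against 2.68 ± 0.01 in C57Bl/6J (SD over 4 arrays). The probe set 1419090_x_at averaged 3.36 ± 0.01 in AKR/J, against 3.35 ± 0.04 in C57Bl/6J. It is annotated with both Klk1b26 and Egfbp2, which RefSeq lists as another name of Klk1b26. Differences at this level are below what these arrays measure, and the genes were not detectable rather than shown to be silent.

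In the fit across 20772 probe sets (limma, adjusted p under 0.05), 5 of the 7 member probe sets in it fell among those called lower in AKR/J, 0 among those called higher and 2 among neither. Over all tested probe sets, 7.7% were called lower and 6.59% higher. For 6 of the 7, all AKR/J arrays lay below all C57Bl/6J arrays, as did 10.6% of all tested probe sets. This contrast chose the genes, so these counts follow from the choice, are no test of the family, and nothing is read from them. The median difference was -2.13 over the 7 tested probe sets and -0.68 over all 11, beside -0.0091 over all tested probe sets.

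The per-array Signal, a separate summary that treats each array on its own, gave the same direction for 5 of the 7 tested probe sets. For Klk1 1415837_at, Signal was 3064.5, 4102.9, 4374 and 4496.2 in AKR/J, against 13684.7, 12663, 14353 and 15608.6 in C57Bl/6J. The strains were again apart, by a log2 difference of -1.82 or 3.54-fold. For Klk1b5 1449313_at, Signal was 93.7, 93.3, 162.3 and 136.4 in AKR/J, against 998.7, 790.7, 863.2 and 1138 in C57Bl/6J, or 7.96-fold lower in AKR/J. The fold was therefore smaller by Signal than by GCRMA for Klk1 and for Klk1b5. It was larger for the shared Klk1b9/Klk1b22 probe set, at 13.99-fold, where Signal was 110.6, 300.8, 405.6 and 367.5 in AKR/J, against 5574.4, 2258.8, 6157.1 and 2449.3 in C57Bl/6J. The C57Bl/6J arrays of that probe set fell into a higher and a lower pair by Signal, while their GCRMA values differed little.

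The Klk1 probe set 1455977_x_at reversed between the summaries. Its Signal was 2344.3, 2161.1, 2468.7 and 2662.3 in AKR/J, against 1215.3, 1126.3, 990.5 and 1315.5 in C57Bl/6J. All AKR/J arrays were above all C57Bl/6J arrays by Signal, with a log2 difference of 1.06, and all were below by GCRMA, with -0.68. The direction of this probe set therefore depends on the summary. Signal of 1460050_x_at averaged 401.9 ± 103.2 in AKR/J, against 365.2 ± 62 in C57Bl/6J (SD over 4 arrays), and its strains overlapped in both summaries.

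**Figure D2:**
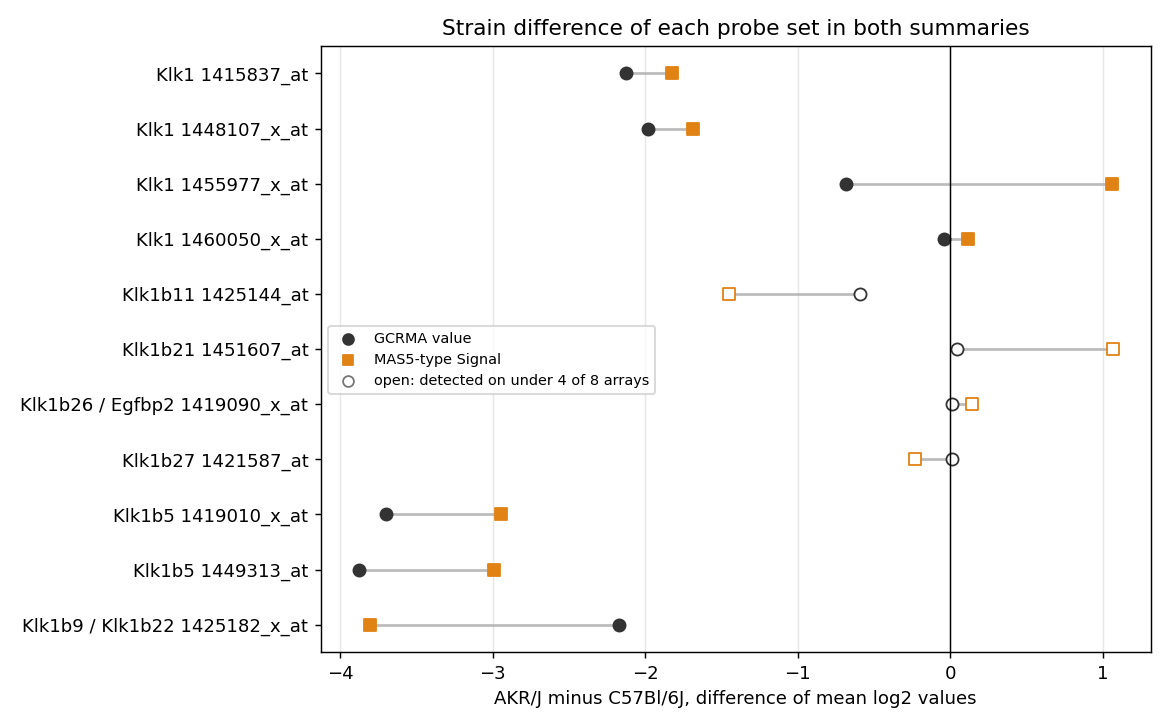
Difference between strains, AKR/J minus C57Bl/6J in log2 units, for each of the 11 probe sets by GCRMA (dark circles) and by MAS5-type Signal (orange squares), with open marks for probe sets detected on under 4 of 8 arrays. The pairs of Klk1 1415837_at, Klk1 1448107_x_at, both Klk1b5 probe sets and 1425182_x_at all lie at -1.69 or lower, and the pair of 1455977_x_at straddles 0 at -0.68 and 1.06.

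Within strains, array-to-array patterns were compared. Among AKR/J arrays, arrays 3 and 4 were the highest pair for Klk1 1415837_at, Klk1 1448107_x_at, both Klk1b5 probe sets and the shared Klk1b9/Klk1b22 probe set. Among C57Bl/6J arrays, arrays 5 and 8 were the highest pair for Klk1 1415837_at and both Klk1b5 probe sets, but not for Klk1 1448107_x_at, 1455977_x_at or the shared probe set. The same pair was highest for Klk1 1460050_x_at, for Klk1b11 and for the undetected Klk1b21, Klk1b26 and Klk1b27, so this order is not particular to the separated probe sets. After each array's strain mean was subtracted, Pearson's r over the 8 arrays was 0.949 between both bright Klk1 probe sets and 0.883 between both Klk1b5 probe sets. It was 0.845 and 0.902 between Klk1 1415837_at and the Klk1b5 probe sets, and 0.942 between it and the shared probe set. Klk1 1448107_x_at gave 0.691 and 0.813 with the Klk1b5 probe sets and 0.941 with the shared one, and the shared one gave 0.744 and 0.755 with Klk1b5. The r of 1455977_x_at, whose strains were also apart by GCRMA, was 0.302 to 0.509 with these 5. These probe sets share arrays and may share transcripts, so the values are descriptions. For 1460050_x_at, r with the others ran from -0.123 to 0.578.

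Markers of exocrine acinar cells, where kallikrein is made, also differed between the strains. Of 37 acinar genes listed, 28 were tested, all detected on all 8 arrays: 26 were lower in AKR/J, Ctrc, a chymotrypsin gene, was higher and Bhlha15, an acinar transcription factor gene, was not called, beside 8.53% of 10891 genes called lower and 7.79% higher. The median acinar difference was -0.86, with a range of -3.37 to 4.02, and the summed acinar intensity was 306772 to 360213 in AKR/J, against 527371 to 537265 in C57Bl/6J. The brightest were the elastase gene Cela3b at -0.57 (adjusted p = 0.000657, limma), the carboxypeptidase gene Cpb1 at -0.51 (0.00245), the colipase gene Clps at -0.67 (0.00374) and the trypsinogen gene Prss2 at -0.44 (0.00355). In bulk RNA, fewer acinar cells and less RNA per cell cannot be told apart. Of the 28, 6 had a lower difference than Klk1 1415837_at and 0 had one as low as either Klk1b5 probe set. Those 6 were Prss3, Gatm, Tff2, Serpini2, Erp27 and Ptf1a, all dimmer than the 4 brightest genes named above, whose differences were small. Whether the size of an acinar difference depends on brightness was not tested.

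The acinar mean was also compared with the tested members from array to array within strains. Its r was 0.757 for Klk1 1415837_at, 0.879 for Klk1 1448107_x_at, 0.749 for the shared probe set, and 0.548 and 0.771 for Klk1b5. It was 0.507 for Klk1 1455977_x_at and -0.2 for Klk1 1460050_x_at. Over 8 arrays these values are a description. With the mean of the 28 acinar genes subtracted on each array, a step chosen after the data were seen, the difference of Klk1 1415837_at was -1.01 and that of Klk1 1448107_x_at was -0.86. The shared probe set then gave -1.05 and the Klk1b5 probe sets -2.58 and -2.76, whereas 1455977_x_at gave 0.44 and 1460050_x_at 1.08. The mean of the 28 genes lay at -0.56 in AKR/J, against 0.56 in C57Bl/6J, as log2 deviation from all 8 arrays. It includes Ctrc, at 4.02 and opposite to most of the 28, and the subtraction was not repeated without Ctrc. The subtraction assumes that each member scales with this mean, which was not tested, nor was the part of acinar content in the members' difference.

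Islet markers were present on every array, as the labelled tissue requires: 7 of 8 had a probe set, all were detected on all 8 arrays, 1 was lower and 1 higher in AKR/J, and the median was 0.18. Of 8 macrophage markers, 6 were lower in AKR/J, with a summed intensity of 1680 to 2175 in AKR/J, against 3064 to 4077 in C57Bl/6J. Of 4 duct markers tested, 1 was lower, with a summed intensity of 3952 to 4308 in AKR/J, against 3336 to 4218 in C57Bl/6J. Of 6 endothelial markers, 3 were higher in AKR/J, with a summed intensity of 2284 to 2818 in AKR/J, against 1975 to 2355 in C57Bl/6J. The part of these cells in the members' difference was not tested.

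**Figure D3:**
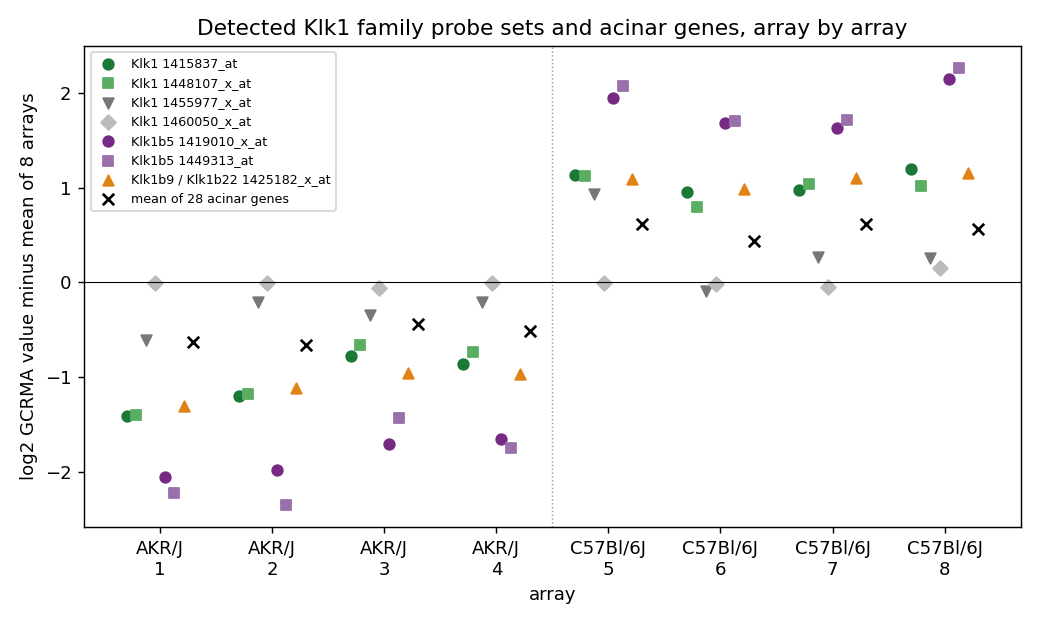
The 7 tested Klk1 family probe sets and the mean of 28 acinar genes on each array, as log2 GCRMA value minus the mean of all 8 arrays, with AKR/J arrays 1 to 4 left of C57Bl/6J arrays 5 to 8. The Klk1b5 marks lie farthest from 0 on every array, the bright Klk1 marks and the shared probe set lie between them and the acinar mean, and 1460050_x_at stays near 0.

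The genes whose array-to-array pattern was most like that of Klk1 1448107_x_at, the brightest member probe set, were sought among 10888 other genes by Pearson's r over 8 arrays with strain means removed. They were Ndrg2 (r = 0.995), Dbf4 (0.973), Rmdn1 (0.973), Pde5a (0.969), Gm17739 (0.966) and Hadhb (0.96). Their strain differences ran in both directions, with 0.69 for Ndrg2 and -0.47 for Hadhb, and none of the 6 was called, with adjusted p from 0.074 to 0.461 (limma). The most alike of so many genes will have a high r over 8 arrays, so this is a description.

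The family lies in a run of 37 kallikrein genes and pseudogenes on chromosome 7, 11 of them pseudogenes. Beyond the members, 14 of 17 other kallikrein genes listed had a probe set of their own, and only Klk1b24 was detected often enough to test. Klk1b24 read 3.34, 3.60, 3.35 and 3.39 in AKR/J, against 4.97, 3.59, 3.60 and 5.43 in C57Bl/6J. Arrays 5 and 8 stood above the other C57Bl/6J arrays, which overlapped AKR/J, and the difference of -0.98 was not called (adjusted p = 0.154, limma; its unadjusted p was under 0.05). Klk1b8 averaged 4.31 ± 0.36 in AKR/J, against 4.38 ± 0.21 in C57Bl/6J (SD over 4 arrays), with no array detected.

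The 10 nearest genes with a probe set on each side of the family were examined in the same fit. Of these 20 neighbours, 8 were tested and 0 were called by limma, with 4 at an unadjusted p under 0.05, and their median difference was 0.23. The brightest were Emc10, a subunit gene of the membrane protein insertase of the endoplasmic reticulum, at 0.32 (adjusted p = 0.095), and the zinc finger gene Zfp719 at -0.15 (adjusted p = 0.454). Calls among the neighbours appeared under other settings, 2 by Signal, Clec11a and Emc10, and 2 after a further quantile normalization, Clec11a and Syt3. With each gene taken as the mean of its probe sets, Clec11a (adjusted p = 0.0487, limma) and Syt3 (0.0448) were called. Each of these has 1 tested probe set, so its values stayed the same and only the fit over all genes changed. Without AKR/J array 4, Syt3 was called. All 3 of these genes were higher in AKR/J, with differences of 0.32 for Clec11a, 0.67 for Syt3 and 0.32 for Emc10.

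**Figure D4:**
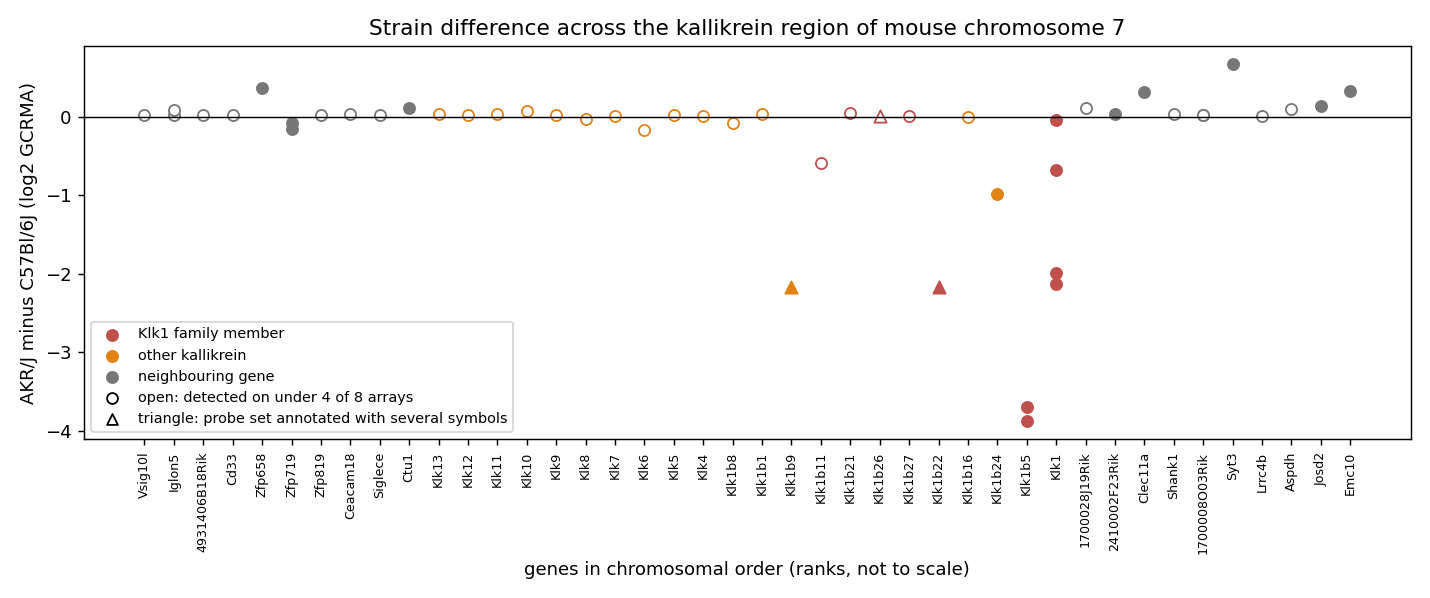
Difference between strains, AKR/J minus C57Bl/6J in log2 GCRMA units, for probe sets of the kallikrein genes and their neighbours in chromosomal order (ranks, not to scale), with open marks for probe sets detected on under 4 of 8 arrays and triangles for probe sets annotated with several symbols. The probe set 1425182_x_at is drawn at both Klk1b9 and Klk1b22, at -2.17; values at or below -1.98 occur at these genes, Klk1b5 and Klk1, and neighbours on either side lie between -0.15 and 0.67.

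Substrates, receptors, kinin-degrading enzymes, inhibitors and other partners of tissue kallikrein were examined as a list of 34 genes, of which 14 were tested. In AKR/J, 4 were higher, 2 were lower and 8 were not called, with 8 of the 14 at an unadjusted p under 0.05, beside 7.79% of all genes called higher and 8.53% lower. The median difference of the 14 was 0.10, beside 0.0001 over all genes tested. On the side of the substrate and receptors little was measured. The kininogen gene Kng1 and Bdkrb2, the constitutive kinin receptor, were detected on 0 arrays. Bdkrb1, the inducible receptor, was detected on 3 AKR/J arrays and 2 C57Bl/6J arrays. It averaged 2.315 in AKR/J, against 2.297 in C57Bl/6J, a level at which undetected probe sets also read. Its difference of 0.02 (adjusted p = 0.865, limma) is therefore not read as an unchanged receptor.

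Of the 5 tested genes of the list that encode kinin-degrading enzymes, Ece1, Cpn1 and Ace were called higher in AKR/J and Xpnpep1 and Cpm were not called. This group was not planned as a count of its own, so nothing is read from the count. The calls of Ece1 and Ace were lost under some settings, given below. Ece1, an endothelin-converting enzyme that also cuts bradykinin, read 11.07, 10.78, 11.01 and 10.74 in AKR/J, against 10.30, 10.54, 10.29 and 10.35 in C57Bl/6J. The strains did not overlap, and the difference was 0.53 (adjusted p = 0.011, limma), while the mean of all its probe sets gave an adjusted p of 0.462. Cpn1, the catalytic subunit of carboxypeptidase N, which trims the end of kinins, read 9.98, 9.67, 9.74 and 9.73 in AKR/J, against 9.19, 9.21, 9.45 and 9.34 in C57Bl/6J. It was higher in all 4 AKR/J arrays than in any C57Bl/6J array, by 0.48 (adjusted p = 0.0125), and the call held with each array left out, with an adjusted p of up to 0.0373.

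Ace, the angiotensin-converting enzyme that inactivates bradykinin, read 6.70, 6.46, 6.95 and 6.23 in AKR/J, against 6.06, 6.03, 5.34 and 5.78 in C57Bl/6J. The arrays of the strains were apart, and the difference was 0.78, or 1.72-fold (adjusted p = 0.0378, limma). That call was lost without any 1 of arrays 1, 2, 3, 5, 6, 7 or 8, with an adjusted p of up to 0.0949, and by Signal, with 0.132. It was also lost with no detection filter (0.111), with array weights (0.0515) and among probe sets detected on all 8 arrays (0.474). In that last setting the other of the 2 tested Ace probe sets stood for the gene. The remaining settings kept the call, among them the mean of both probe sets (0.0449). Ace is also made by endothelium, whose markers are given above; their part in this difference was not tested. Xpnpep1, an aminopeptidase that cuts bradykinin, was not called, with a difference of 0.33 (adjusted p = 0.12, limma). Cpm, a membrane-bound carboxypeptidase that trims kinins, differed by -0.02 (adjusted p = 0.977).

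Of the signalling genes, Nos3, the endothelial nitric oxide synthase, had a difference of 0.79 but was not called (adjusted p = 0.06, limma). It was called under 4 other settings, namely detection on all 8 arrays, array weights, the mean of each gene's probe sets and without C57Bl/6J array 8. The remaining settings did not call it. Among them were Signal (adjusted p = 0.22, limma), no detection filter (0.163) and each other array left out, with up to 0.138. Nos3 has 1 tested probe set, so averaging left its values the same and changed only the fit over all genes. Gnaq, the G protein subunit that couples kinin receptors, read 10.03, 9.99, 9.84 and 9.92 in AKR/J, against 9.47, 9.65, 9.68 and 9.68 in C57Bl/6J. All 4 AKR/J arrays were above the C57Bl/6J arrays, by 0.33 (adjusted p = 0.0277, limma), but the call was lost without any 1 of arrays 1, 2, 4, 5 or 6, with an adjusted p of up to 0.0744. The Gnaq call was also lost by Signal (0.066) and with the mean of its 6 tested probe sets (0.0564), and every other setting kept it. Plcb1, a phospholipase C that acts below Gnaq, read 6.42, 6.71, 6.68 and 6.64 in AKR/J, against 7.03, 7.03, 7.48 and 7.29 in C57Bl/6J. It was lower in AKR/J by a difference of -0.59 (adjusted p = 0.0153), with no overlap, and the call held with each array left out.

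Scnn1g, the gamma subunit of the epithelial sodium channel, which tissue kallikrein can cleave, read 5.65, 5.29, 5.28 and 5.27 in AKR/J, against 6.27, 6.25, 5.61 and 6.33 in C57Bl/6J. It was called lower in AKR/J, with a difference of -0.74 (adjusted p = 0.0256, limma), although AKR/J array 1 and C57Bl/6J array 7 overlapped. The call was lost without any 1 of arrays 2, 3, 4, 5, 6 or 8, with an adjusted p of up to 0.0699. It was also lost by Signal (0.0937) and with no detection filter (0.0772), and every other setting kept it. Scnn1b, the beta subunit, was not called, at -0.03 (adjusted p = 0.886), and Serping1, an inhibitor of plasma kallikrein, was not called either, at -0.39 (adjusted p = 0.302). Egf, a growth factor that binds some kallikreins of the family in the submandibular gland, differed by -0.18 (adjusted p = 0.509).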

How the data were processed

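Islet RNA of 8 samples, 4 per strain, was read on 1 array each. The value table deposited by the authors holds linear intensity values from GCRMA, as the submitters' processing notes name it, without a version. Per the file headers, each deposited array file gives a MAS5-type Signal, which is an intensity, and a detection p-value. GCRMA borrows across arrays, whereas Signal does not.

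GCRMA values were log2-transformed, 64 controls were left out of 45101 probe sets, and 20772 probe sets detected (p under 0.05) on at least 4 of 8 arrays entered lmFit and eBayes of limma, AKR/J minus C57Bl/6J, with Benjamini-Hochberg adjustment over all of them and a threshold of 0.05. The files give no batch. A gene was taken by its brightest tested probe set that names it alone. Platform annotation gave 1 symbol to 34945 probe sets, several to 932 and none to 9160. Folds are on the log2 intensity scale. R 4.3.3, limma 3.58.1, Python 3.11.15, Biopython 1.88 and matplotlib 3.10.9 were used, and the fit was tested on simulated data.

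The members, lists and tests were chosen with earlier results of these data known. All member probe sets were described; of the other lists, every called gene (kallikrein-kinin, other kallikreins, neighbours) was named, with the 4 brightest kallikrein-kinin genes that were not called, the 2 brightest of a list with no call and the 4 brightest acinar genes, and the 6 genes most alike in pattern. Klk1b8 was named after its values were seen, as were Kng1, Bdkrb1, Bdkrb2, Cpm, Nos3, Bhlha15, Ctrc and the neighbours called under other settings. Alternatives were all probe sets or those detected on 8 arrays, quantile-normalized Signal floored at its 5th percentile, GCRMA values quantile-normalized again, median centring, eBayes with trend and robust, array weights, no suffixed probe sets, the mean of a gene's probe sets, and each array left out.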

Additional observations from a re-analysis of the deposited data

Results flagged for a closer look

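An array far from the other 3 of its strain was found in 4 of 34 groups of 4 arrays checked; chance flags about 1 group in 20. The Klk1 probe set 1460050_x_at read 5.47 on AKR/J array 3, against 5.52 to 5.53 on the other AKR/J arrays, a small gap in a tight group. Scnn1g read 5.65 (5.648) on AKR/J array 1, against 5.27 to 5.29 on the others, and 5.61 (5.614) on C57Bl/6J array 7, against 6.25 to 6.33 on the others. Gnaq read 9.47 (9.468) on C57Bl/6J array 5, against 9.65 to 9.68 on the others.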

How the results depend on the processing

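With the mean acinar value subtracted, chosen after the data were seen, the sign turned for 1455977_x_at (0.44) and 1460050_x_at (1.08). Of 108 values of single member probe sets under the alternatives, 101 moved by less than the spread between arrays and 7 moved by more. Filters, eBayes options and array weights cannot change a difference of means, so many of the 101 were fixed in advance. The 7 were all by Signal, which moved every tested member probe set by more than that spread. By Signal, 1455977_x_at gave 1.04 and 1460050_x_at gave 0.12, against -0.68 and -0.04 by GCRMA. The median member difference, -2.13 in the analysis as reported, was -2.91 over the 4 probe sets detected on all 8 arrays, -1.73 (-1.726) by Signal and -3.003 over the 2 probe sets without a suffix, and it ran from -2.21 to -2.01 with each array left out. Probe sets without overlap numbered 2 without suffixed probe sets and 6 with each array left out. Probe sets called lower in AKR/J, 1599 in all, ran from 1064, without AKR/J array 2, to 1566 with each array left out; those called higher, 1369 in all, ran from 920 to 1254. Kallikrein-kinin genes called, 6 in all, numbered 3 by Signal and ran from 3 to 6 with each array left out, with 3 without AKR/J array 2 and without C57Bl/6J arrays 5 or 6. Neighbours called, 0 in all, numbered 2 by Signal, 2 after further quantile normalization and 2 with the mean of a gene's probe sets, settings added for them after the data were seen, and ran from 0 to 1 with each array left out. The causes were not tested. No paired analysis was possible because the sample titles share no numbers between strains. Probe sets near background, Klk1b11, Klk1b21, Klk1b26 and Klk1b27 among them, limit what can be said of these genes.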
